A study of Mus musculus with 4 samples.

Results

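The genes examined were 10 genes of the neutrophil granule and alarmin programme, *S100a8*, *S100a9*, *Ngp*, *Ltf*, *Camp*, *Mmp8*, *Mmp9*, *Retnlg*, *Csf3r* and *Cxcr2*, chosen by symbol from the 16015 genes listed for mouse colonic epithelium. All 10 symbols matched a gene. The 4 libraries were bulk RNA-seq of colonic epithelial cells taken 7 days after the start of dextran sulfate sodium (DSS), an agent that injures the colonic lining, and were labelled WT (2 libraries) or *Bmal1* cKO (2 libraries). *Bmal1*, listed under its symbol *Arntl*, encodes a transcription factor at the core of the circadian clock. The *Bmal1* cKO mice carried *Villin-CreERT2* and *Bmal1* fl/fl and received tamoxifen by injection on 5 days, with Cre driven by the *Villin* promoter of the intestinal epithelium, and the methods name *Bmal1* fl/fl mice as controls, although their label reads WT. Whether the controls also received tamoxifen was not stated. All mice were C57BL/6 animals aged 2 to 4 months, and drank 3% DSS for 5 days and water for 2 days.

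Neutrophils are short-lived white cells of the blood that enter inflamed mucosa. While they mature in the bone marrow they make granule proteins in waves: enzymes such as myeloperoxidase early, lactoferrin and cathelicidin later, and the matrix metalloproteinases of the gelatinase granules last. S100A8 and S100A9 are calcium-binding proteins of the cytosol that pair as calprotectin, a marker of gut inflammation, and act as alarmins (danger signals) once released. *S100a8*, *S100a9* and *Ltf* can also be transcribed by epithelial cells, so that a read of these genes does not by itself name its cell of origin.

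C/EBP factors drive granule genes during neutrophil maturation. The stretches before the start sites are shown for the 3 granule genes, and for the alarmin gene, that held the letters TTGCNNAA, a core of C/EBP binding sites. The search covered both strands of the 250 bases before the RefSeq start (build GRCm38.p6), and the stretch printed stops before any base that GENCODE M21 places in the gene. Capitals mark the match, and lines run 5′ to 3′ along the gene's strand.
Ngp (chr9:110419558-110419746, plus strand): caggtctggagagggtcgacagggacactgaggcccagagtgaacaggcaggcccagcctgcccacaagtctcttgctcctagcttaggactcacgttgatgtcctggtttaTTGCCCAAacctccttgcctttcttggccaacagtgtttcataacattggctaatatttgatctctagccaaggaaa
Ltf (chr9:111019042-111019270, plus strand): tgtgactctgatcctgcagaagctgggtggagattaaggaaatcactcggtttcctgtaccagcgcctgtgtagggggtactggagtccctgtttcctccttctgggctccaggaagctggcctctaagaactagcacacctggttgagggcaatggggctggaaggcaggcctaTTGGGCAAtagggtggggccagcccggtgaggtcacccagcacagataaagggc
Mmp8 (chr9:7558179-7558428, plus strand): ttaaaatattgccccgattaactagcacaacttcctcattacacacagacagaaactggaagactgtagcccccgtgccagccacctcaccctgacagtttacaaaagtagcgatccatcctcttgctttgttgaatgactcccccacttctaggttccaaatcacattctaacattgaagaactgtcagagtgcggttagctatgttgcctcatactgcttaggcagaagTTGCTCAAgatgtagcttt
S100a9 (chr3:90695722-90695971, minus strand): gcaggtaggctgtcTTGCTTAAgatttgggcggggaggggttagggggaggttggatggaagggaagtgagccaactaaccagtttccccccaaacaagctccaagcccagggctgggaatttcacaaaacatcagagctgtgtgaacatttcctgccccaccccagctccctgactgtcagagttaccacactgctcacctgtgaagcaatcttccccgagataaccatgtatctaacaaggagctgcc
A window was held for 9 of the 10 genes, *Mmp9* being the exception. TTGCNNAA lay in 5 of these 9 windows, those of *S100a9*, *Ngp*, *Ltf*, *Mmp8* and *Retnlg*, and in 9.56% of all 32851 windows of this length. The PU.1-type letters GAGGAA also lay in 5 of 9 (23.3% of all windows), and the E-box CACGTG, which BMAL1 and CLOCK can bind, lay in none of the 9 (6.02% of all windows). *Ngp* had a further TTGCNNAA match in the bases not printed. These are matches of letters and not sites of binding.

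On the chromosomes, *S100a8* (chr3:90668978-90670035) and *S100a9* (chr3:90692632-90695721) lay 22.6 kb apart, within a cluster of *S100* genes. *Camp* (chr9:109847379-109849617), *Ngp* (chr9:110419747-110423012) and *Ltf* (chr9:111019271-111042767) followed each other on chromosome 9 at gaps of 570.1 and 596.3 kb. *Mmp8* (chr9:7558456-7568485) was at the other end of that chromosome. *Mmp9* (chr2:164940780-164955850), *Csf3r* (chr4:126024550-126044440), *Cxcr2* (chr1:74153989-74161246) and *Retnlg* (chr16:48872621-48874496) each lay on a chromosome that held no other of the 10 genes. No other annotated gene overlapped any of the 10.

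The libraries held 10312791 to 14156639 reads. The values below are normalized counts, which are reads divided by the size factor of their library, and 1 read was worth 0.845 to 1.35 normalized counts. *Arntl* was at 358 and 342 normalized counts in WT 1 and WT 2 and at 341 and 289 in *Bmal1* cKO 1 and 2, a log2 fold change of -0.16 that did not pass the test (limma, adjusted p = 0.389). The count sums the exons of the whole gene and so may not show a deletion of part of it. For this reason the groups are named by their labels throughout.

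The alarmin genes *S100a8* and *S100a9* were the most abundant of the 10 genes, and both were far lower in the libraries labelled *Bmal1* cKO. *S100a8* was at 1424 and 8066 normalized counts in WT 1 and WT 2, and at 362 and 174 in *Bmal1* cKO 1 and 2. The groups did not overlap, and the lower WT library was still above the higher *Bmal1* cKO library. On the scale of log2(normalized count + 1) the difference was -3.75 ± 0.83 (SE, n = 2 per group, limma adjusted p = 0.0133). *S100a9*, the partner subunit of calprotectin, was at 1096 and 7187 in WT and at 121 and 60.8 in *Bmal1* cKO, with a log2 fold change of -5.01 ± 0.88 (limma adjusted p = 0.00612). Within each library there was less *S100a9* than *S100a8* by count. The ratio of *S100a9* to *S100a8* was 0.769 and 0.891 in WT, and 0.335 and 0.349 in *Bmal1* cKO. The ratio was chosen after its values were seen and was not tested.

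The genes of the later granules, *Ngp*, *Ltf*, *Camp*, *Mmp8* and *Mmp9*, differed widely in how much remained. *Ngp*, which encodes neutrophilic granule protein, a cathelicidin relative, was at 156 and 706 normalized counts in WT and had no read in either *Bmal1* cKO library. With 3 reads per library taken as the limit of detection, its WT mean was at least 121-fold higher, and WT 1, the lower of the pair, at least 43.8-fold. Its fitted log2 fold change, -8.38 ± 0.83 (limma adjusted p = 0.00102), was the most negative of all 13983 genes tested, and depends on the pseudocount. *Camp*, which encodes the antimicrobial peptide cathelicidin, also had no read in *Bmal1* cKO, but it had only 13 reads in WT 1 and 5 in WT 2, or 11 and 4.24 normalized counts. It was below the mean of 10 normalized counts that the test required, and the other 9 genes were above it. Its WT mean was at least 2.13-fold higher and WT 2, the lower of the pair, at least 1.19-fold. The depth did not allow a closer estimate of any difference.

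*Ltf*, which encodes the iron-binding protein lactoferrin, kept the most transcript among these granule genes relative to WT. It was at 275 and 202 normalized counts in WT and at 71.0 and 48.7 in *Bmal1* cKO. Its values within each group lay close together and the groups did not overlap. The log2 fold change was -1.98 ± 0.29 (limma adjusted p = 0.00327), the smallest fall of the 9 genes tested and also the smallest standard error.

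*Mmp8* and *Mmp9* encode the neutrophil collagenase and gelatinase B, enzymes that cut collagens. *Mmp8* was at 169 and 1129 normalized counts in WT, and at 4.11 and 4.06 in *Bmal1* cKO, where these values stood for 4 and 3 reads (7 in all, exact 95% Poisson interval 2.81 to 14.4, counting error only). *Mmp9* was at 215 and 867 in WT and at 50.4 and 20.3 in *Bmal1* cKO. Neither gene's groups overlapped. The log2 fold change was -6.43 ± 0.89 for *Mmp8* (limma adjusted p = 0.00270) and -3.71 ± 0.75 for *Mmp9* (adjusted p = 0.00975). *Mmp8* was 0.787 and 1.30 times *Mmp9* by count in WT and 0.0816 and 0.200 times in *Bmal1* cKO, a ratio also chosen after its values were seen and not tested.

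*Retnlg*, which encodes resistin-like gamma, a secreted protein of mouse neutrophils and bone marrow, showed the widest gap between the WT libraries. It was at 230 and 1959 normalized counts in WT. In *Bmal1* cKO it was at 8.23 and 8.11, from 8 and 6 reads. The log2 fold change was -6.20 ± 0.97 (limma adjusted p = 0.00407). Its relative *Retnlb*, made by goblet cells, was at 1278 and 1797 in WT and at 1285 and 2467 in *Bmal1* cKO, and these groups overlapped (adjusted p = 0.572).

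The receptor genes *Csf3r* and *Cxcr2* were lower in *Bmal1* cKO as well, with the highest adjusted p-values of the 9 genes tested. *Csf3r*, the receptor for the growth factor G-CSF that drives neutrophil production, was at 142 and 501 normalized counts in WT and at 58.6 and 35.1 in *Bmal1* cKO. Its log2 fold change was -2.53 ± 0.63 (limma adjusted p = 0.0194). *Cxcr2*, the chemokine receptor that draws neutrophils into tissue, was at 71.8 and 231 in WT and at 32.9 and 6.76 in *Bmal1* cKO, the last value from 5 reads. Its log2 fold change was -3.00 ± 0.88 (limma adjusted p = 0.0330). After each library was corrected for GC content and exon length, *Csf3r* no longer passed (-2.01, adjusted p = 0.0550), while the other 8 of 9 genes still did, where 17.6% of all genes were lower after that correction.

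**Figure D1:**
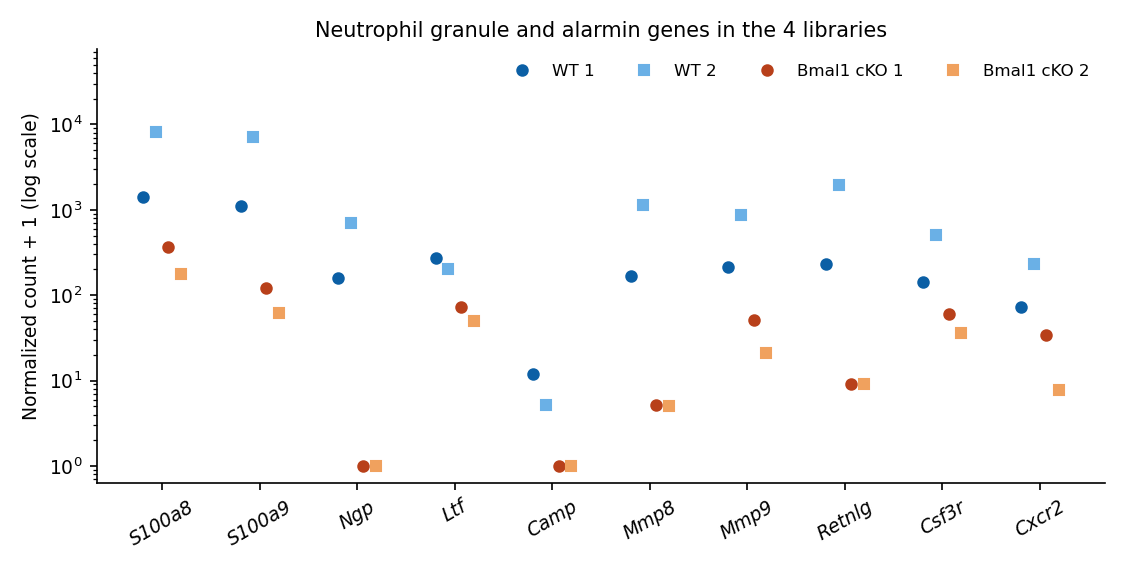
Normalized count plus 1 (log axis) of each of the 10 genes in the 4 libraries. Circles are replicate 1 and squares replicate 2, WT in blue and *Bmal1* cKO in orange tones. Both *Bmal1* cKO libraries lie below both WT libraries for all 10 genes, and WT 2 lies above WT 1 for 8 of them.

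Of the 9 genes tested, 9 were lower in *Bmal1* cKO and 0 were higher, where 27.7% of all 13983 genes tested were lower and 29% were higher. *Ngp*, *Mmp8* and *Retnlg* reached the mean of 10 that the test required only through their WT counts. With their low counts in *Bmal1* cKO they could only be called lower, and they are part of this count and of the median. The median log2 fold change was -3.75 over the 9 genes and -0.04 over all genes tested. The 2 groups did not overlap for any of the 10 genes, with both *Bmal1* cKO libraries below both WT libraries. That was so for 41.6% of all listed genes. The 10 genes together took 0.0325% of the reads of WT 1 (95% Wilson interval 0.0316 to 0.0335%), 0.174% of WT 2 (0.172 to 0.176%), 0.00517% of *Bmal1* cKO 1 (0.00480 to 0.00557%) and 0.00257% of *Bmal1* cKO 2 (0.00228 to 0.00290%). These intervals cover counting error only. *S100a8* and *S100a9* made up 65.7 to 73.1% of this sum in each library. In bulk RNA, fewer cells of a type and less RNA per cell cannot be told apart.

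All 9 log2 fold changes remained negative when each library was left out in turn, but the calls did not all hold. Without *Bmal1* cKO 2, 3 of 9 genes passed (15.8% of all genes tested were lower), and these were *Ngp*, *Ltf* and *Mmp8*. Without *Bmal1* cKO 1, 5 passed (17.1% of all), those 3 with *Mmp9* and *Cxcr2*. Without WT 2, 6 passed (20.4% of all), and *Mmp9*, *Csf3r* and *Cxcr2* did not. Without WT 1, 8 passed (17% of all), and *Cxcr2* did not. *Ngp*, *Ltf* and *Mmp8* thus passed under each of the 4 omissions.

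**Figure D2:**
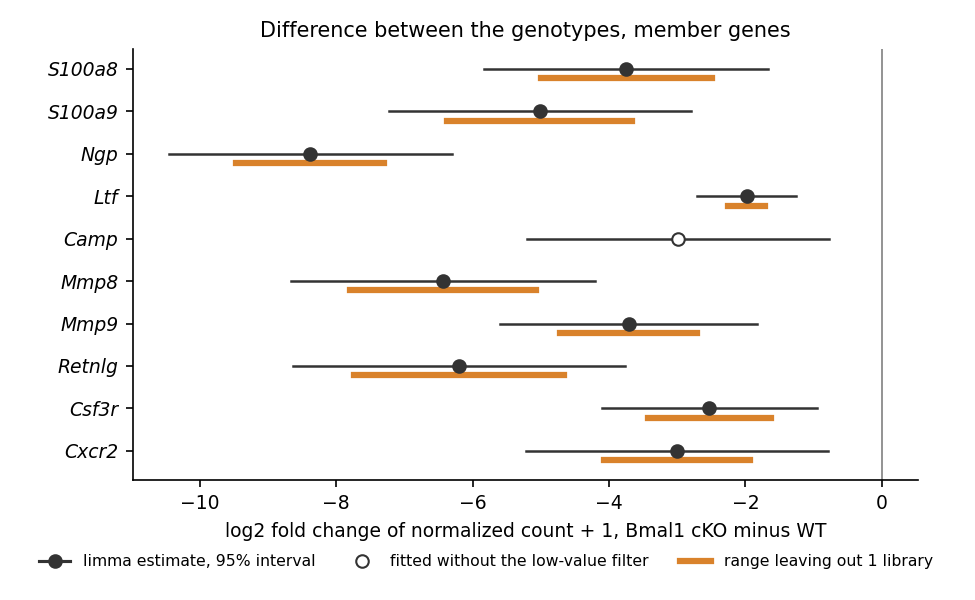
Log2 fold change of normalized count plus 1, *Bmal1* cKO minus WT, with its 95% interval from limma (black) and the range of the estimate when each library is left out in turn (orange). The open circle for *Camp* is from the fit without a filter on low values (-2.99, adjusted p = 0.0369), and the estimates of the other genes run from -8.38 (*Ngp*) to -1.98 (*Ltf*).

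Per kilobase of exon, the order of levels changed between the groups. In WT the mean normalized count per kb was 7934 for *S100a9*, 6837 for *S100a8*, 1846 for *Retnlg*, 353 for *Ngp*, 268 for *Mmp8*, 153 for *Mmp9*, 89.0 for *Csf3r*, 69.0 for *Ltf*, 49.7 for *Cxcr2* and 10.04 for *Camp*. The ranges of neighbours in this order overlapped over the WT libraries in every case but that of *Cxcr2* and *Camp*, with WT 2 several-fold above WT 1 for most of the genes. Within each WT library the other 9 genes kept the same order, and *Ltf* was the fifth in WT 1 and the ninth in WT 2. In *Bmal1* cKO, *S100a8* stood at 386 per kb and *S100a9* at 175, *Ltf* came next at 17.3, and *Retnlg* was at 13.8. *Csf3r* was at 12.99 per kb, *Mmp9* at 9.99, *Cxcr2* at 6.51 and *Mmp8* at 1.68, while *Ngp* and *Camp* had no read. In this order the ranges of *Retnlg* and *Csf3r*, of *Csf3r* and *Mmp9* and of *Mmp9* and *Cxcr2* overlapped over the *Bmal1* cKO libraries, and *Retnlg* was below *Csf3r* and *Mmp9* in *Bmal1* cKO 1 and above both in *Bmal1* cKO 2.

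The WT libraries were far apart for these genes. WT 2 was above WT 1 for 8 of the 10 genes, by 3.22-fold (*Cxcr2*) to 8.53-fold (*Retnlg*), with *S100a8* at 5.66-fold, *S100a9* at 6.56-fold and *Mmp8* at 6.68-fold. Among all genes tested, 48.9% were higher in WT 2 than in WT 1 and 1.13% were at least 3 times as high. *Ltf* and *Camp* went the other way, and WT 1 was 1.36-fold (*Ltf*) and 2.59-fold (*Camp*) above WT 2. In *Bmal1* cKO, where *Ngp* and *Camp* had no read, replicate 1 was above replicate 2 for the other 8 genes, by 1.01-fold (*Mmp8* and *Retnlg*) to 4.87-fold (*Cxcr2*). *Mmp8* (4 and 3 reads) and *Retnlg* (8 and 6 reads) were all but level. The share of all genes higher in *Bmal1* cKO 1 was not computed, so this count is a description only.

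Markers of several other cell types had the opposite order of the WT libraries. *Ptprc*, which encodes the leukocyte antigen CD45, was at 1259 and 745 normalized counts in WT 1 and WT 2, or 1.69-fold higher in WT 1. Of the macrophage and monocyte markers, 10 of 11 were higher in WT 1, as were 8 of 8 T cell markers, 7 of 7 B and plasma cell markers and 9 of 9 stromal and endothelial markers. Other neutrophil genes were mostly higher in WT 2, 16 of 19 among granule and effector genes and 15 of 19 among receptor and surface genes. Red cell markers (5 of 5) and colonic epithelial markers (13 of 14) were also higher in WT 2. These counts compare 1 library with another and carry no test.

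**Figure D3:**
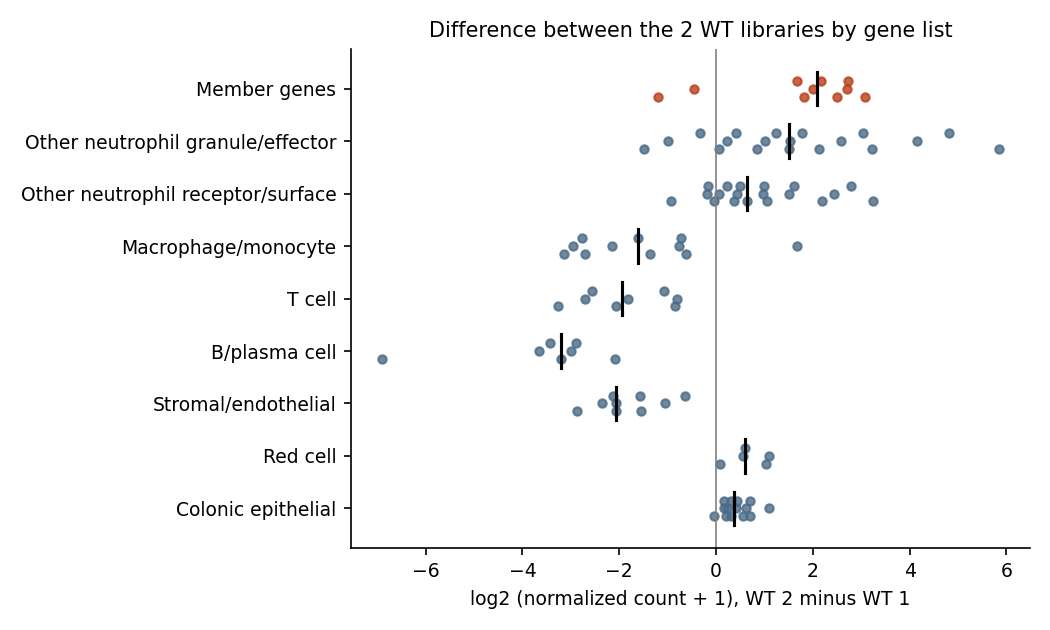
Difference in log2(normalized count + 1) between the WT libraries, WT 2 minus WT 1, with 1 point per gene and a black bar at the median of each list. The median is 2.09 over the 10 genes, 1.51 and 0.64 over the other neutrophil lists, -1.61 for macrophage and monocyte markers, -1.94 for T cell, -3.20 for B and plasma cell and -2.06 for stromal and endothelial markers.

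*Ptprc*, expressed by nearly all white cells, was also lower in *Bmal1* cKO, at 315 and 414 normalized counts, a log2 fold change of -1.42 ± 0.28 (limma adjusted p = 0.00865). It was -2.50 after the GC and length correction, and it did not pass without *Bmal1* cKO 1 (adjusted p = 0.0852) or without *Bmal1* cKO 2 (adjusted p = 0.0522). The 10 genes were therefore also set against *Ptprc* in each library. *Ngp* was at 12.4 and 94.7% of *Ptprc* in WT and had no read in *Bmal1* cKO. *Mmp8* was at 13.4 and 151% in WT against 1.31 and 0.980% in *Bmal1* cKO, and *Retnlg* at 18.3 and 263% against 2.61 and 1.96%. *S100a9*, *Mmp9* and *Camp* likewise did not overlap between the groups, which made 6 of 10 genes, where 10.6% of all listed genes lay lower without overlap on this scale. *S100a8* was at 113 and 1082% of *Ptprc* in WT and at 115 and 42.2% in *Bmal1* cKO, and so overlapped. *Ltf* (21.8 and 27.0% against 22.5 and 11.8%), *Csf3r* (11.3 and 67.2% against 18.6 and 8.50%) and *Cxcr2* (5.70 and 31.0% against 10.5 and 1.63%) overlapped as well.

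In the fit relative to *Ptprc*, 7 of 9 genes were lower at an adjusted p under 0.05 (4.73% of 13982 genes), and *Ltf* (log2 difference -0.56, limma adjusted p = 0.414) and *Csf3r* (-1.11, adjusted p = 0.0975) were not. Every gene in that fit shares the scatter of *Ptprc*, which limma then takes as known with 27964 degrees of freedom, so these p-values are too small. With the GC and length correction 5 of 9 were lower (1.6% of all genes), and *Mmp9* went from -2.29 to -0.55 (adjusted p = 0.348). With the spread of each gene taken alone on 2 degrees of freedom, 0 of the 9 genes and 0 of all genes passed (lowest adjusted p among the 9 = 0.153 by an unmoderated linear model fitted with limma), while 1 of the 9 and 4547 of all genes had an unadjusted p under 0.05.

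**Figure D4:**
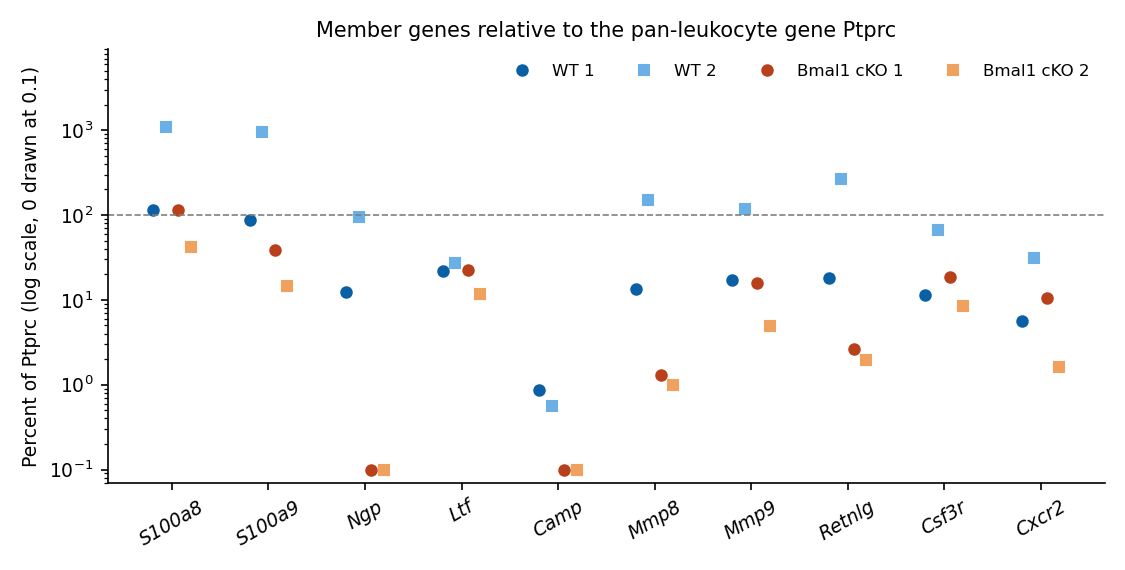
Each of the 10 genes as a percentage of *Ptprc* in the same library (log axis, a value of 0 drawn at 0.1, dashed line at 100%). The WT and *Bmal1* cKO libraries stay apart for *S100a9*, *Ngp*, *Camp*, *Mmp8*, *Mmp9* and *Retnlg* and overlap for *S100a8*, *Ltf*, *Csf3r* and *Cxcr2*.

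Among other neutrophil granule and effector genes, 15 of 18 tested were lower in *Bmal1* cKO and 0 were higher, with a median log2 fold change of -3.42 (12 and 1 after the GC and length correction). The most abundant was *Pglyrp1*, a peptidoglycan-binding protein of granules that was at 6107 and 8117 normalized counts in WT and at 4670 and 3389 in *Bmal1* cKO (-0.82, limma adjusted p = 0.0205), and did not pass after the GC and length correction (-0.36, adjusted p = 0.231). *Slpi*, an inhibitor of neutrophil elastase that epithelium also makes, was at 2559 and 6023 in WT and at 775 and 500 in *Bmal1* cKO (-2.66, adjusted p = 0.00457). *Lyz2*, the lysozyme of myeloid cells, was at 3749 and 1335 in WT and at 203 and 419 in *Bmal1* cKO (-2.94, adjusted p = 0.00804). *Cd177*, a surface protein of neutrophils, was instead at 1910 and 2252 in WT and at 2462 and 3167 in *Bmal1* cKO, a difference of 0.43 that did not pass (adjusted p = 0.0619) but passed after the correction (1.08, adjusted p = 0.00883). The cell source of the *Pglyrp1* and *Cd177* reads was not tested.

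Among other neutrophil receptor and surface genes, 16 of 18 tested were lower and 0 were higher, with a median log2 fold change of -3.33 (17 and 0 after the GC and length correction). *Ly6g*, the surface antigen used to identify mouse neutrophils, was at 5801 and 7474 normalized counts in WT and stayed at 2918 and 2549 in *Bmal1* cKO (-1.27, limma adjusted p = 0.00176). It belongs to a family of similar *Ly6* genes, and its count is uncertain where reads match several of them. *Itgam*, the integrin CD11b of myeloid cells, was at 542 and 845 in WT and at 103 and 85.2 in *Bmal1* cKO (-2.84, adjusted p = 0.000785). *Csf2rb*, a shared receptor chain of myeloid growth factors, was at 501 and 677 against 62.7 and 44.6 (-3.44, adjusted p = 0.000570). *Clec4e*, a lectin receptor, was at 185 and 1277 against 98.7 and 63.5 and did not pass (-2.60, adjusted p = 0.0504), but passed after the GC and length correction (-3.50, adjusted p = 0.0330). *Fpr1*, a receptor for bacterial peptides and a defining neutrophil marker, was at 59.1 and 565 against 8.23 and 8.11 (-4.33, adjusted p = 0.0173). *Mpo*, *Elane* and *Cxcr1*, also defining markers, were not analysed here.

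Genes of the primary granules were represented by *Serpinb1a* and *Ctsc*, since *Mpo*, *Elane*, *Prtn3*, *Ctsg* and *Ms4a3* were not analysed here. *Serpinb1a*, an inhibitor of granule proteases, was at 6133 and 7431 normalized counts in WT and higher in *Bmal1* cKO at 10749 and 10147 (0.63, limma adjusted p = 0.0109), but after the GC and length correction its difference was 0.00 and did not pass (adjusted p = 0.989). *Ctsc*, which activates granule proteases, was at 2137 and 1326 against 2160 and 2048 (adjusted p = 0.267). Neither gene is limited to neutrophils.

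Of the ligands of CXCR2 and of the G-CSF receptor, 3 of 5 tested were lower and 0 were higher (4 and 0 after the GC and length correction). *Cxcl2* was at 559 and 4157 normalized counts in WT and at 181 and 82.5 in *Bmal1* cKO (-3.63, limma adjusted p = 0.0229), with WT 2 again the highest library. *Cxcl1* was at 451 and 158 against 56.6 and 13.5 (-3.21, adjusted p = 0.0191). *Cxcl3* was at 93.8 and 1293 against 42.2 and 18.9 and did not pass (-3.58, adjusted p = 0.0509), but passed after the GC and length correction (-4.31, adjusted p = 0.0444). *Cxcl5*, the most abundant of these chemokine genes over the 4 libraries but not in WT 2, was at 2771 and 622 against 2190 and 1645, and its groups overlapped (adjusted p = 0.523). *Csf3*, which encodes G-CSF and was named after its values were seen, was at 167 and 342 against 0 and 1.35 (-7.29, adjusted p = 0.000902).

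Of the 9 other *S100* genes tested, 6 were lower and 1 was higher, and their median log2 fold change was -0.60, or 0.01 after the GC and length correction, when 3 were lower and 1 was higher. *S100a6* was at 8898 and 10617 normalized counts in WT and at 6607 and 6237 in *Bmal1* cKO (-0.60, limma adjusted p = 0.0112), and *S100a11* at 5600 and 4416 against 2338 and 2480 (-1.05, adjusted p = 0.00227). *S100a16* was at 3569 and 3271 against 2448 and 1979 (-0.63, adjusted p = 0.0105). After that correction *S100a6* (-0.29, adjusted p = 0.126) and *S100a1* (0.01, adjusted p = 0.979) did not pass, nor did *S100a16*, whose direction turned (0.16, adjusted p = 0.367). *S100a10*, a partner of annexin A2, was higher in *Bmal1* cKO, at 4231 and 4245 in WT against 6509 and 6717 (0.64, adjusted p = 0.00287). Whether the *S100* genes differ from *S100a8* and *S100a9* in their response was not tested.

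Of the receptors and other alarmins on the list, 1 of 5 tested was higher and 0 were lower. *Tlr4*, a receptor of S100A8 and S100A9 and of lipopolysaccharide, was at 563 and 501 normalized counts in WT and at 1784 and 1867 in *Bmal1* cKO (1.78, limma adjusted p = 0.000533). *Bsg*, another reported receptor, was at 6320 and 7887 against 5649 and 6894 (adjusted p = 0.374), *Hmgb1* at 3373 and 3020 against 3568 and 3874 (adjusted p = 0.122) and *Il33* at 294 and 129 against 463 and 258 (adjusted p = 0.176). After the GC and length correction the difference of *Tlr4* was 0.69 (adjusted p = 0.00744), *Bsg* was higher (0.82, adjusted p = 0.0180) and *Hmgb1* lower (-0.80, adjusted p = 0.00523).

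Of the transcription factors of neutrophil and myeloid maturation, 5 of 5 tested were lower, with a median log2 fold change of -2.90. After the GC and length correction 3 were lower and 1 was higher, with a median of -1.71, and *Gfi1* did not pass (-0.21, adjusted p = 0.591). *Cebpb* was at 819 and 772 normalized counts in WT and at 31.9 and 52.7 in *Bmal1* cKO (-4.24, limma adjusted p = 0.000533, and -1.71 after the GC and length correction), *Cebpd* at 1696 and 349 against 81.3 and 128 (-2.90, adjusted p = 0.0204) and *Spi1*, which encodes PU.1, at 265 and 226 against 12.3 and 14.9 (-4.08, adjusted p = 0.000549). *Cebpa* was at 542 and 551 against 329 and 285 (-0.83, adjusted p = 0.00402), and its direction turned after the GC and length correction (0.87, adjusted p = 0.00618). *Cebpe* was not analysed here. Of the protease inhibitors, 4 of 5 tested were lower, among them *Serpina3n* at 3412 and 461 against 8.23 and 21.6 (-6.44, adjusted p = 0.00372) and *Timp1* at 293 and 139 against 7.20 and 4.06 (-4.98, adjusted p = 0.00122), and all 6 listed with a count were higher in WT 1.

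Markers of several other cell types were also lower in *Bmal1* cKO. The summed markers of red cells were at 1348 and 2033 normalized counts in WT and at 19.5 and 17.6 in *Bmal1* cKO, with *Hba-a2* at 0 in both, and 5 of 5 were lower, although near-identical globin genes share reads. Those of stroma and endothelium were at 11273 and 2833 against 356 and 335 (9 of 9 lower, and 7 after the GC and length correction), and those of macrophages and monocytes at 5758 and 6603 against 1827 and 1625 (7 of 11 lower). Without *Cd14*, which made up much of that sum and did not pass, the other 10 summed to 4122 and 1362 against 348 and 388, a sum made after the values were seen. T cell markers summed to 482 and 144 against 31.9 and 74.3 (4 of 7 lower, *Cd2* at 0 in both *Bmal1* cKO libraries, and 2 of 7 lower after the GC and length correction). B and plasma cell markers summed to 9231 and 275 against 185 and 376 (1 of 7 lower, and 0 after the correction), and 0 of 1 mast cell markers tested passed. Colonic epithelial markers were present in all libraries, at 222488 and 294985 in WT and 180956 and 205784 in *Bmal1* cKO, with 6 of 14 lower and 2 higher (1 and 5 after the GC and length correction). The part of these differences between marker lists in the values of the 10 genes was not tested.

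The 9 tested genes were averaged into a mean profile over the 4 libraries. Genes outside the 10 with the nearest profile were sought among 9975 tested genes whose mean reached 100 normalized counts. They were *Hp* (Euclidean distance 0.19 in log2 units), *Thbs1* (0.42), *Slc15a3* (0.42), *Trem1* (0.64) and *Pnliprp2* (0.64). *Hp*, which encodes haptoglobin, a haemoglobin-binding protein stored in neutrophil granules, was at 365 and 1251 normalized counts in WT and at 35.0 and 21.6 in *Bmal1* cKO. *Trem1*, a receptor that amplifies inflammatory signals in neutrophils and monocytes, was at 104 and 571 against 20.6 and 9.46. *Thbs1*, which encodes the matrix protein thrombospondin 1, was at 2796 and 10674 against 240 and 214. With 4 libraries the likeness rests on few points, and it is a description only.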

How the data were processed

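RNA-seq libraries of colonic epithelium (2 WT and 2 *Bmal1* cKO) were compared. Per the methods and the submitters' processing notes, reads were aligned with STAR to GRCm38 (mm10) and analysed with DESeq2. The deposited table holds, per gene and library, counts divided by DESeq2 size factors, that is a normalized signal and not raw counts. Division by the smallest value above 0 in each library gave whole reads for 100% of values (within 0.01 read), so these reads were recovered, and shares of a library were computed from them. The strand setting and the treatment of reads that match several genes are not given in the sources used here. The authors' columns of log2 fold changes, their standard errors, test statistics (a score) and p-values (raw and adjusted) were deposited too and were not used.

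Values were tested as log2(normalized count + 1) with limma 3.58.1 (R 4.3.3; trend, two-sided, Benjamini-Hochberg over all 13983 genes with a mean of at least 10, threshold 0.05), WT against *Bmal1* cKO with no covariate. Fold changes on this scale understate the change of low genes. Gene positions, exon lengths and GC content came from GENCODE M21 (16008 of 16015 genes matched), and sequences from RefSeq. Alternatives were pseudocounts of 0.5 and 5, no filter and a mean of at least 50, scaling by library total or TMM, edgeR 4.0.16 and DESeq2 1.42.0 on the recovered reads, a loess correction (span 0.3) for GC content and exon length, a replicate block, and leaving out each library. The fit with no moderation across genes was added after the data were seen. The main test, the loess correction, edgeR, DESeq2 and the replicate block were tried on simulated data. The other alternatives, the fit relative to *Ptprc* and the fit with no moderation were not. With 2 libraries against 2, an exact permutation test could not pass the threshold and was not used.

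The labels do not name the animals, but the study gives 2 mice per group for this RNA-seq, so the libraries were taken as 1 mouse each. Replicates of a group differed by more than sampling noise (chi-square per gene 40.9 in WT and 10.1 in *Bmal1* cKO). The 10 genes, the other lists, the motifs and the tests were chosen with earlier results of these data known. Besides the 10 genes, the text names *Arntl*, *Ptprc*, at most the 4 most abundant genes of each list with those that passed against the direction of most of the list, and the 5 genes nearest in profile, and exceptions (*Fpr1* from the marker list, *Csf3*, *S100a1*, *Gfi1*, *Hba-a2*, *Cd2* and the genes not analysed) were chosen after values were seen or for being at 0.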

Additional observations from a re-analysis of the deposited data

How the results depend on the processing

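All 9 tested genes had negative log2 fold changes under all 15 alternatives, and *Ngp*, *Ltf* and *Mmp8* passed under each. The count of 9 lower genes was 8 after the loess correction for GC content and length (17.6%) and 3 to 8 when each library was left out (15.8 to 20.4% of all genes), where the remaining library of its group is assumed to vary like the others. Their median log2 fold change of -3.75 ran from -5.00 (without WT 1) to -2.70 on leaving out a library. Of the other listed genes 81 of 122 were lower (42 to 79 on leaving out a library) and 5 higher (2 to 6), and 10 were higher after the loess correction and 9 with it and the replicate block. Of all genes tested, 2458 were lower and 2570 higher after the loess correction, against 3871 and 4059 without it. Library total scaling moved the median of all genes to -0.26 and called 4885 lower and 3091 higher.

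With the replicate block 9 of the 10 genes remained lower (27.1% of all genes), and 6 with the block and the loess correction (14.9%). Same-numbered libraries did not deviate together over the genes tested (correlation -0.0908). With 2 libraries per group this cannot exclude pairing, and the labels do not say whether the numbers pair animals. Relative to *Ptprc*, 7 genes became 4 with the replicate block (1.87% of all genes), 4 with the block and the loess correction (1.17%), 3 to 8 on leaving out a library (0.508 to 4.66%) and 0 with no moderation across genes, and *Csf3r* and *Ltf* turned to positive values under some alternatives. The depth limits *Ngp*, *Camp*, *Mmp8*, *Retnlg* and *Cxcr2*, which had 0 to 8 reads in 1 or both *Bmal1* cKO libraries.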
